A study of Homo sapiens with 4 samples.

Results

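Wnt ligands, their receptors and the secreted proteins that hold them back were followed at the RNA level in A673 cells exposed to CBL0137. The genes were taken by symbol: every protein-coding WNT, FZD, DKK, SFRP and RSPO gene, with LRP5, LRP6, WIF1, LGR4, LGR5, RNF43, ZNRF3, the TCF/LEF factors LEF1, TCF7, TCF7L1 and TCF7L2, and the feedback targets AXIN2, NKD1 and NKD2. This gave 55 genes of the 60617 in the deposited table. The symbol rule used no measured value, but the group was chosen with earlier results of these data known. A673 is a human Ewing sarcoma line, driven by a fusion of EWSR1 to FLI1. It was grown in DMEM with serum and received CBL0137 at 1 µM or its solvent DMSO for 24 h, with 2 libraries per condition. CBL0137 is a curaxin, a small molecule that binds DNA and traps the histone chaperone FACT on chromatin. The series gives 1 line, 1 dose and 1 time, and the labels do not say whether the replicates were separate cultures, so the p-values cover the variation among these 4 libraries, possibly no more than technical variation.

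Wnt proteins are secreted ligands that bind a Frizzled receptor together with LRP5 or LRP6. In the canonical branch this stops the destruction complex from degrading β-catenin, which then enters the nucleus and activates genes through TCF/LEF factors, AXIN2 being the most widely used readout. DKK proteins block LRP5 and LRP6, SFRP proteins and WIF1 bind the ligands, and R-spondins raise receptor levels by drawing the E3 ligases RNF43 and ZNRF3 away through LGR receptors. In Ewing sarcoma, Wnt/β-catenin activity is known to vary between cells of one tumour, and DKK2 is known as a highly expressed family member.

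Reads assigned to genes numbered 20483714 and 22817617 in CBL0137 replicates 1 and 2, against 23373554 and 23031963 in DMSO replicates 1 and 2. Mitochondrially encoded transcripts took 5.82% to 5.92% of them. All 11 Ewing sarcoma markers listed were detected, among them CD99, NKX2-2, NR0B1 and STEAP1, with a summed level of 5255 to 5258 CPM in CBL0137 and 5571 to 5578 CPM in DMSO. CPM is a gene's read count scaled to the same total in every library, with TMM factors. GLI1 was the 1 Ewing marker of the 11 that rose, where 6.88% of all tested genes rose. Its call was lost without CBL0137 replicate 2 or DMSO replicate 1. The median log2 fold change of the 11 was 0.03. By an edgeR adjusted p under 0.05 alone, 3 of the 11 were higher, where 17.5% of all tested genes were, namely NR0B1, GLI1 and NKX2-2. By the same limit 4 were lower, where 19.0% were, namely PAPPA, PRKCB, IGF1R and CAV1.

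After CBL0137, 7 of the 55 genes rose, namely the ligands WNT10A, WNT10B, WNT9A and WNT11, the receptor FZD9, the DKK family member DKK3 and the transcription factor TCF7. RSPO2 and RSPO3 fell. A gene was called when edgeR's quasi-likelihood test gave a Benjamini-Hochberg adjusted p under 0.05 over all 17309 genes tested together with a fold change above 1.5. Another 28 were tested without being called, and 18 were below the count filter, which left 37 tested. The 7 that rose made up 18.9% of those tested, where 6.88% of all tested genes rose, and the 2 that fell made up 5.41%, where 2.73% of all tested genes fell. Calls in either direction reached 9.61% of all tested genes. With 1 library left out, 4 to 5 of the Wnt genes were called higher, the 4 being without DMSO replicate 1. Lower calls numbered 0 without CBL0137 replicate 1 or DMSO replicate 2 and 1 without CBL0137 replicate 2, and DESeq2 called 4 higher and 1 lower. By adjusted p alone, 12 of the 37 were higher, where 17.5% of all tested genes were, and 4 were lower, where 19.0% were. The median log2 fold change of the 37 was 0.11, against 0.003 over all tested genes. In 36 of the 37, the exception being DKK1, every library held at least 10 reads, so passing the filter did not rest on one condition alone.

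**Figure D1:**
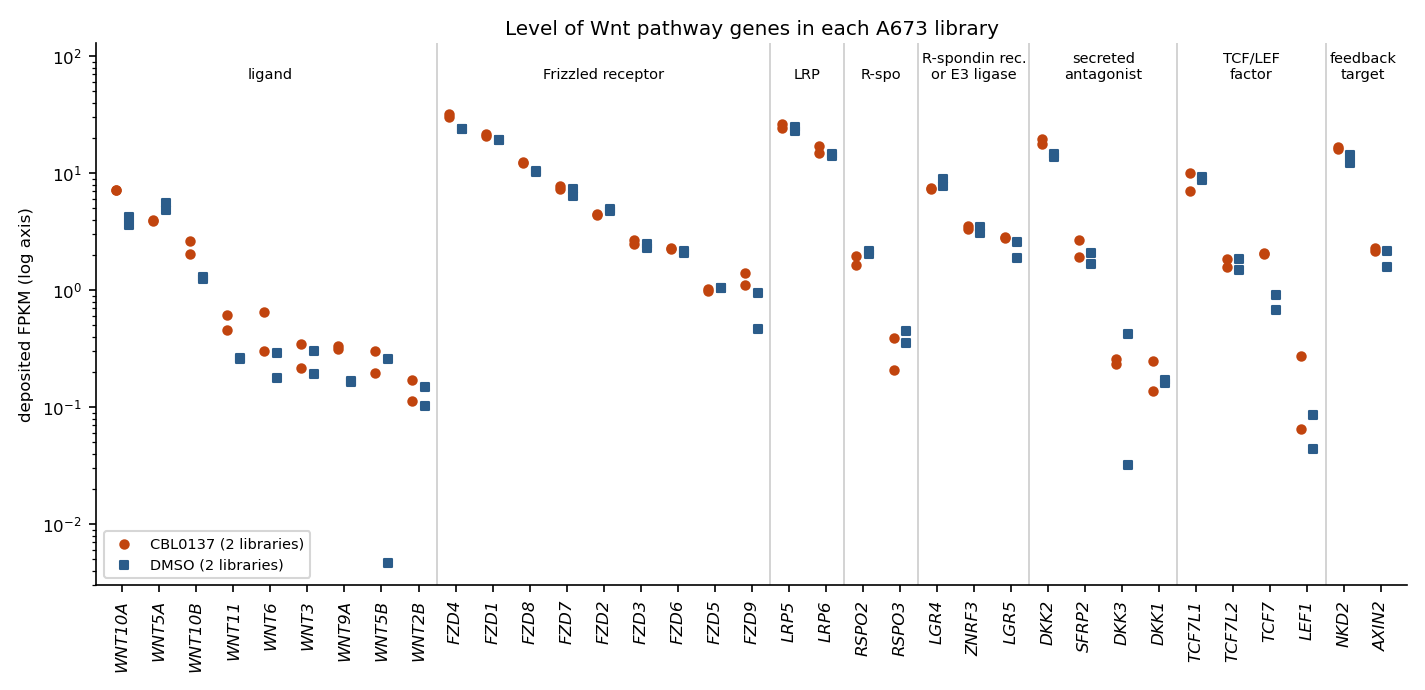
Deposited FPKM (log axis) of each gene with a mean of at least 0.1 FPKM, grouped by role, with 1 point per library for CBL0137 (circles) and DMSO (squares). FZD4, LRP5 and FZD1 stand highest, and of the ligands shown only WNT10A, WNT5A and WNT10B lie above 1 FPKM in every library.

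A673 cells expressed many of the receptors and few of the ligands. Per unit length, in the deposited FPKM averaged over the 4 libraries, FZD4 was highest at 27.6, followed by LRP5 at 24.7, FZD1 at 20.1, DKK2 at 16.5, LRP6 at 15.1, NKD2 at 14.8 and FZD8 at 11.3. These were the 7 genes above 10 FPKM. Another 17 lay between 1 and 10 FPKM, and 31 lay under 1 FPKM. None of the 7 most abundant genes was called. The 7 that rose averaged between 1.10 and 18.6 CPM over all libraries. Of the 17 tested members under 10 CPM, 6 rose (35.3%) and 1, RSPO3, fell, where 12.7% of all tested genes at that level rose and 3.15% fell. Of the 20 tested members from 10 CPM, WNT10A rose (5%) and RSPO2 fell, where 2.56% of all tested genes at that level rose and 2.41% fell. In libraries made from whole cultures, a change in the share of cells that express a gene and a change in RNA per cell cannot be told apart.

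The promoters of WNT10A and TCF7, which rose in counts and in filtered FPKM alike, are shown as the regulatory sequence next to the finding. They are the 250 bases before each annotated start in RefSeq on GRCh38.p14, with TCF7 at both of its starts; the downstream start makes a form of TCF7 that lacks the β-catenin binding domain. Capitals mark the 5-letter core of the TCF/LEF motif, CTTTG or its reverse complement CAAAG. WNT10A lies at chr2:218880602-218880851 on the plus strand, the upstream TCF7 start at chr5:134115363-134115612 and the downstream one at chr5:134123368-134123617, both on the plus strand.
WNT10A: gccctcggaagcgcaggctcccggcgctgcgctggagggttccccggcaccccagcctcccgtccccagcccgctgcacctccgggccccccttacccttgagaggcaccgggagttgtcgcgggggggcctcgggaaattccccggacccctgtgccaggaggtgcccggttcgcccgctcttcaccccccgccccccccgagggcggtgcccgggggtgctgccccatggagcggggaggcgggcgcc
TCF7 upstream start: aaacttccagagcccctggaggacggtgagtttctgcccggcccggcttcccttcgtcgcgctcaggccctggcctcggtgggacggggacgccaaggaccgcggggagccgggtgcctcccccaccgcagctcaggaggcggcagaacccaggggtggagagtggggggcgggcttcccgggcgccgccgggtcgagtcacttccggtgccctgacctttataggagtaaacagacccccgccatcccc
TCF7 downstream start: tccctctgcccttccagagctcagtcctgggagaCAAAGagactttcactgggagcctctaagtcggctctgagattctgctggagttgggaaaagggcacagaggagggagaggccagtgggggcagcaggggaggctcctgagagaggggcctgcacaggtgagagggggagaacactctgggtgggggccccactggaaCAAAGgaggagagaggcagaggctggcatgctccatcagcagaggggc

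The core stood 2 times before the downstream TCF7 start, and 0 times in the other 2 windows. RefSeq promoters were matched for 37 of the 55 genes, with 44 starts. The core was present at 12 of these 44 (27.3%), against 42.1% of all 35116 promoters of the same length. The longer form CTTTGA or TCAAAG, which contains the core, was present at 1 of 44 (2.27%), the DKK1 promoter, against 11.2% of all promoters. The Wnt gene promoters had a median GC content of 68.4%, against 58% over all promoters. These are counts of letters in a short window, and they say nothing about binding.

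**Figure D2:**
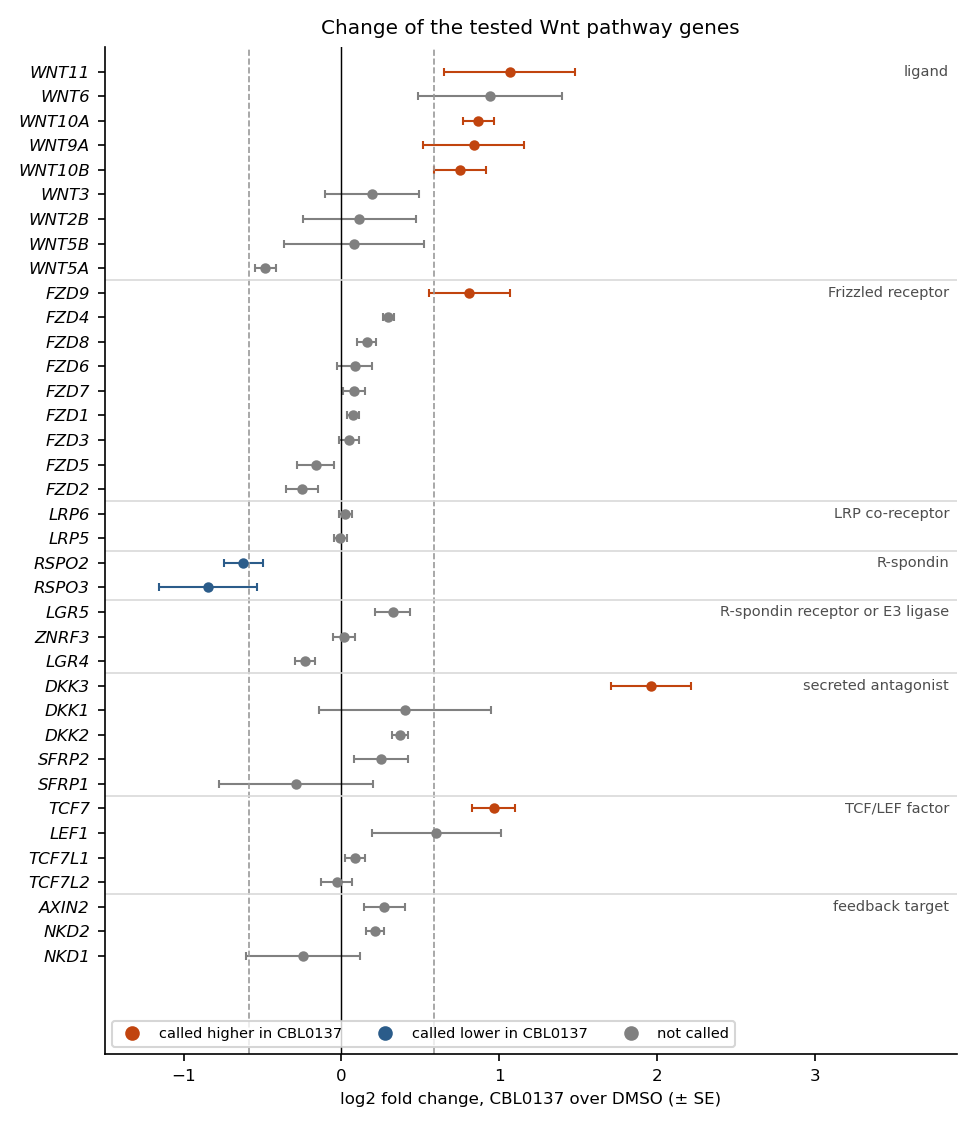
Log2 fold change, CBL0137 over DMSO, with its standard error for the 37 tested genes, ordered by role and then by size. Dashed lines mark a fold change of 1.5, and colours mark the 7 genes called higher and the 2 called lower.

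Among the ligands, called genes all rose. Of 19 WNT genes, 9 were tested, 4 rose, 0 fell and 5 were not called, where 6.88% of all tested genes rose and, under 10 CPM, 12.7%. WNT10A, a ligand of the canonical branch known for tooth, hair and skin development, had the highest deposited FPKM of any ligand averaged over all libraries; in DMSO alone WNT5A was higher. WNT10A (ENSG00000135925, chromosome 2, 219745574 to 219764303 on GRCh37) measured 23.8 and 24.2 CPM in CBL0137 replicates 1 and 2, against 12.3 and 14.0 CPM in DMSO replicates 1 and 2. Both CBL0137 libraries stood well above both DMSO libraries, a difference larger than the spread within either condition. Its log2 fold change was 0.87 ± 0.10 (SE), with an edgeR adjusted p of 7.92e-08. The deposited FPKM showed the same separation, at 7.12 and 7.18 in CBL0137 and 3.63 and 4.18 in DMSO.

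WNT10B, the closest relative of WNT10A and known for promoting bone formation, lies on chromosome 12 (ENSG00000169884, 49359123 to 49365518). WNT10B measured 7.05 and 9.46 CPM in CBL0137, against 4.68 and 5.15 CPM in DMSO. The conditions did not overlap, although the CBL0137 libraries differed more from each other than the DMSO libraries did. Its log2 fold change was 0.75 ± 0.16, with an edgeR adjusted p of 6.99e-04. Without CBL0137 replicate 2 it was 0.52, below the fold limit, and on log2(FPKM + 1) it was 0.55 with a limma adjusted p of 0.0604.

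WNT9A and WNT11 rose at much lower levels. WNT9A, known for its part in joint formation, had 40 and 42 reads in CBL0137, against 24 and 23 reads in DMSO (ENSG00000143816, chromosome 1, 228106357 to 228135633). Its replicates were close and its conditions well apart, at 1.90 and 1.81 CPM in CBL0137 and 1.05 and 1.02 CPM in DMSO. This gave a log2 fold change of 0.84 ± 0.32, with an edgeR adjusted p of 0.042. That call was lost when any 1 of the 4 libraries was left out, at 0.80 without CBL0137 replicate 1, 0.87 without CBL0137 replicate 2, 0.85 without DMSO replicate 1 and 0.81 without DMSO replicate 2. DESeq2 did not call it either (0.84, adjusted p 0.27), nor did edgeR with a replicate block (0.84, adjusted p 0.0516).

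WNT11, a ligand of the non-canonical branch that guides cell movement in the embryo, had 43 and 22 reads in CBL0137, against 14 and 18 reads in DMSO (ENSG00000085741, chromosome 11, 75897369 to 75921780). Its CBL0137 libraries, at 2.05 and 0.95 CPM, were further apart than CBL0137 replicate 2 was from DMSO, where it measured 0.61 and 0.80 CPM. The log2 fold change of 1.07 ± 0.41 had an edgeR adjusted p of 0.0453. Without CBL0137 replicate 1 it dropped to 0.42 and the call was lost. The call was also lost without DMSO replicate 1 (0.88), without DMSO replicate 2 (1.26) with DESeq2 (1.08, adjusted p 0.243), with limma-voom (0.95, adjusted p 0.0832) and with a replicate block (1.03, edgeR adjusted p 0.0656), and without CBL0137 replicate 2 the value was 1.53.

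WNT5A, the best known non-canonical ligand, was the only tested WNT gene with a lower level after CBL0137. WNT5A measured 34.3 and 33.5 CPM in CBL0137, against 48.8 and 45.9 CPM in DMSO. Its log2 fold change of -0.48 ± 0.07 had an edgeR adjusted p of 1.99e-06 and did not reach the fold limit. WNT6 was not called at 0.94 ± 0.46 (edgeR adjusted p 0.111), with 38 and 16 reads in CBL0137 and 18 and 11 reads in DMSO, which overlap as CPM. Its value was 0.11 without CBL0137 replicate 1, and it passed both limits without CBL0137 replicate 2 (1.49). WNT3, WNT2B and WNT5B, at 0.19 ± 0.30, 0.11 ± 0.36 and 0.08 ± 0.44, had 13 to 59 reads per library. They averaged 2.13, 1.53 and 0.74 CPM in CBL0137 and 1.87, 1.43 and 0.70 CPM in DMSO, and the spread between replicates was larger than the difference.

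The other 10 WNT genes had 0 to 8 reads per library and were not tested. WNT2, WNT7A and WNT9B had 0 reads in all 4 libraries, which allows a level of up to 0.128 to 0.146 CPM per library at 3 reads, counting error only. WNT16 had 0 and 2 reads in CBL0137 and 8 and 5 reads in DMSO, and WNT4 had 2 and 1 in CBL0137 and 4 and 8 in DMSO. WNT genes often lie in pairs, and the partners can be compared by position. WNT6 ends 6618 bases before WNT10A on the same strand of chromosome 2. WNT10B and WNT1 lie 6586 bases apart on chromosome 12, on opposite strands, and WNT1 had 2 and 0 reads in CBL0137 and 0 and 0 in DMSO. WNT9A and WNT3A lie 59065 bases apart on chromosome 1, and WNT3A had 1 and 3 reads in CBL0137 and 0 and 2 in DMSO. So WNT10B and WNT9A rose beside a neighbour that was at the limit of detection in both conditions.

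**Figure D3:**
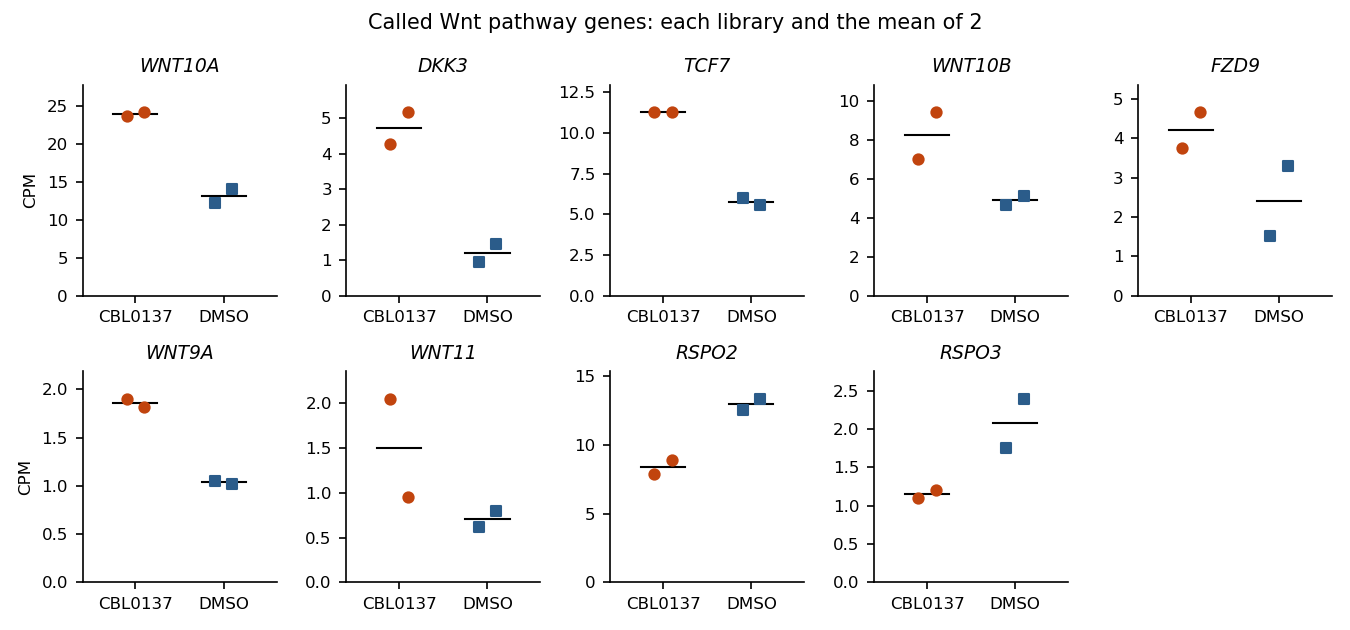
CPM of the 9 called genes in each library, with CBL0137 left of DMSO, a point per library and a bar at the mean of 2. The conditions do not overlap in any panel, but these genes were called on the same values, so this adds no support to the calls. Uncalled genes such as FZD5, LEF1 and DKK1 did not overlap in CPM either, and the share over all genes was not counted. The replicates of WNT11 in CBL0137 and of FZD9 in DMSO each differ by a large part of their mean.

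Of 10 Frizzled receptor genes, 9 were tested, 1 rose, 0 fell and 8 were not called. Over all tested genes 6.88% rose and, under 10 CPM, 12.7%. FZD9, a receptor studied in bone and in the nervous system, had 79 and 108 reads in CBL0137, against 35 and 74 reads in DMSO (ENSG00000188763, chromosome 7, 72848108 to 72850450). At 3.76 and 4.66 CPM in CBL0137 against 1.53 and 3.29 CPM in DMSO, the lower CBL0137 library lay just above the higher DMSO library. The log2 fold change was 0.81 ± 0.26, with an edgeR adjusted p of 0.0146. It was 0.36 without DMSO replicate 1 and 0.64 without CBL0137 replicate 2, where the call was lost, and 1.45 without DMSO replicate 2, and DESeq2 did not call it (0.80, adjusted p 0.138).

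FZD4, which also serves as the receptor of norrin in retinal vessels, was the most abundant member. FZD4 measured 253 and 259 CPM in CBL0137, against 210 and 206 CPM in DMSO. The difference was small and tight, a log2 fold change of 0.30 ± 0.04 with an edgeR adjusted p of 5.66e-07, below the fold limit. FZD8 averaged 59.2 CPM in CBL0137 and 52.9 CPM in DMSO (0.16 ± 0.06, edgeR adjusted p 0.0326). FZD2 measured 14.4 and 14.1 CPM in CBL0137 and 16.4 and 17.5 CPM in DMSO (-0.25 ± 0.10, edgeR adjusted p 0.0512). The remaining tested Frizzled genes averaged 215 CPM (FZD1), 52.4 CPM (FZD3), 10.3 CPM (FZD5), 12.8 CPM (FZD6) and 42.1 CPM (FZD7) in CBL0137. In DMSO the same genes averaged 205 CPM (FZD1), 50.7 CPM (FZD3), 11.5 CPM (FZD5), 12.1 CPM (FZD6) and 39.9 CPM (FZD7), close to their CBL0137 levels. FZD1, FZD3, FZD5, FZD6 and FZD7 had log2 fold changes of 0.07, 0.05, -0.16, 0.08 and 0.08, with edgeR adjusted p between 0.145 and 0.594. FZD10 had 0 reads in every library. The co-receptors LRP5 and LRP6, through which canonical Wnt signals pass, measured 174 and 188 CPM and 224 and 237 CPM in CBL0137, against 187 and 176 CPM and 221 and 231 CPM in DMSO. Both overlapped between conditions, with log2 fold changes of -0.01 ± 0.04 and 0.03 ± 0.04, and the sign of LRP5 turned with upper-quartile factors (0.04) and with library size alone (0.06).

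Both R-spondins that passed the count filter fell, where 2.73% of all tested genes fell. RSPO2 (ENSG00000147655, chromosome 8, 108911544 to 109095870) had 165 and 207 reads in CBL0137, against 286 and 301 reads in DMSO. As CPM these were 7.86 and 8.94 in CBL0137 and 12.5 and 13.4 in DMSO, with both CBL0137 libraries below both DMSO libraries. RSPO2 had a log2 fold change of -0.62 ± 0.12, with an edgeR adjusted p of 2.37e-04. This is close to the fold limit, and the call was lost with upper-quartile factors (-0.57), library size alone (-0.56), without CBL0137 replicate 1 (-0.54) and without DMSO replicate 2 (-0.58). In the deposited FPKM the difference was smaller, at 1.65 and 1.96 in CBL0137 and 2.05 and 2.17 in DMSO, and it was not called there (-0.15 on log2(FPKM + 1), limma adjusted p 0.38).

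RSPO3 (ENSG00000146374, chromosome 6, 127439816 to 127520626) had 23 and 28 reads in CBL0137, against 40 and 54 reads in DMSO. Its conditions did not overlap in CPM, at 1.10 and 1.21 in CBL0137 and 1.75 and 2.40 in DMSO. In deposited FPKM they overlapped, at 0.206 and 0.390 in CBL0137 and 0.357 and 0.449 in DMSO (-0.115 on unfiltered log2(FPKM + 1), limma adjusted p 0.626). That FPKM fit called 0 of all genes, and the added 1 shrinks any change at levels under 1 FPKM. In the counts, the log2 fold change of RSPO3 was -0.84 ± 0.31, with an edgeR adjusted p of 0.0357. The call was lost without CBL0137 replicate 1 (-0.78), without CBL0137 replicate 2 (-0.92), without DMSO replicate 2 (-0.61) and with DESeq2 (-0.85, adjusted p 0.236). RSPO1 had 0 reads in every library, and RSPO4 had 1 read in CBL0137 replicate 2 alone.

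The receptors of the R-spondins were not called, and LGR4 and LGR5 had opposite signs. LGR4 measured 54.5 and 53.5 CPM in CBL0137, against 58.6 and 68.2 CPM in DMSO (-0.23 ± 0.06, edgeR adjusted p 0.00585). LGR5, a marker of intestinal stem cells and a β-catenin target, measured 16.4 and 15.6 CPM in CBL0137, against 14.1 and 11.4 CPM in DMSO (0.32 ± 0.11, edgeR adjusted p 0.0243). Neither gene overlapped between conditions, and both were below the fold limit. ZNRF3, an E3 ligase that removes Frizzled receptors from the membrane, measured 33.6 and 35.6 CPM in CBL0137 and 35.2 and 33.2 CPM in DMSO (0.02 ± 0.07). RNF43, the other such ligase, had 0 reads in every library. In the annotation used here, 69% of RNF43 exon bases are also exon of another gene, among them ENSG00000285897 on the same strand. That gene had 0 to 2 reads per library but 4.23 to 5.35 deposited FPKM, and reads that fit more than 1 gene are left out of the counts, so the level of RNF43 could not be read from them.

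Of 9 secreted antagonists, 5 were tested, 1 rose, 0 fell and 4 were not called. Over all tested genes 6.88% rose and, under 10 CPM, 12.7%. DKK3 showed the largest change of all 37 tested genes. DKK3 is a divergent member of the DKK family that, unlike DKK1, is not known as a strong ligand of LRP6, and is often silenced in tumours. It had 90 and 120 reads in CBL0137, against 22 and 33 reads in DMSO (ENSG00000050165, chromosome 11, 11977754 to 12031316). As CPM this was 4.29 and 5.18 in CBL0137 and 0.96 and 1.47 in DMSO, with no overlap. The log2 fold change was 1.96 ± 0.25, with an edgeR adjusted p of 8.53e-07, and it was 1.69 to 2.29 with 1 library left out.

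The deposited FPKM of DKK3 did not show this rise. It was 0.258 and 0.233 in CBL0137, against 0.0323 and 0.422 in DMSO, so that the conditions overlapped. On log2(FPKM + 1) over all genes with a value, the change was 0.04 with a limma adjusted p of 0.948. That fit called 0 of all genes in either direction, so its adjusted p could not have given a call for DKK3. The added 1 also shrinks any change at levels under 1 FPKM. In the annotation used here, 47.5% of DKK3 exon bases are also exon of USP47, a deubiquitinase gene on the opposite strand. USP47 measured 116 and 105 CPM in CBL0137 and 111 and 111 CPM in DMSO (-0.01 ± 0.05). No source used here states whether strand was kept, and without it reads of DKK3 and USP47 in that stretch cannot be told apart.

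DKK2, which binds LRP6 and was the most abundant of the 9 secreted antagonist genes in the group, was higher without reaching the fold limit. DKK2 measured 102 and 105 CPM in CBL0137, against 77.5 and 83.2 CPM in DMSO. The conditions did not overlap, and the log2 fold change was 0.37 ± 0.05 with an edgeR adjusted p of 1.84e-06. SFRP2 measured 5.62 and 7.90 CPM in CBL0137 and 5.21 and 6.22 CPM in DMSO (0.25 ± 0.17). DKK1 and SFRP1 had 8 to 24 reads per library. DKK1 averaged 0.50 CPM in CBL0137 and 0.37 CPM in DMSO (0.40 ± 0.54), and SFRP1 0.62 CPM in CBL0137 and 0.75 CPM in DMSO (-0.29 ± 0.49). DKK4, SFRP4, SFRP5 and WIF1 had 0 to 3 reads per library and were not tested.

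TCF7 was the 1 called gene among the 4 TCF/LEF factors, where 6.88% of all tested genes rose and, under 10 CPM, 12.7%. TCF7, also known as TCF-1 and best studied in T cells, is both a partner and a target of β-catenin. It had 237 and 261 reads in CBL0137, against 137 and 125 reads in DMSO (ENSG00000081059, chromosome 5, 133450372 to 133487556). The replicates were nearly equal within each condition, at 11.3 and 11.3 CPM in CBL0137 and 5.996 and 5.551 CPM in DMSO. TCF7 had a log2 fold change of 0.96 ± 0.13, with an edgeR adjusted p of 2.70e-06, and with 1 library left out it was 0.90 to 1.02. The deposited FPKM separated further, at 2.08 and 2.02 in CBL0137 and 0.675 and 0.907 in DMSO. The counts are per gene, so the starts shown above cannot be told apart.

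The other TCF/LEF factors were not called. TCF7L1, which mostly acts as a repressor, was the most abundant of the 4, at 44.05 and 45.77 CPM in CBL0137 and 43.3 and 41.4 CPM in DMSO (0.08 ± 0.06). In the deposited FPKM its sign was the other way (-0.10 on log2(FPKM + 1)), since CBL0137 replicate 2 stood at 7.04 where the other libraries had 8.79 to 9.97. TCF7L2 measured 15.5 and 17.2 CPM in CBL0137 and 16.8 and 16.6 CPM in DMSO (-0.03 ± 0.10), and its sign turned with upper-quartile factors (0.02) and library size alone (0.03). LEF1, itself a β-catenin target, had 20 and 26 reads in CBL0137 and 15 and 16 reads in DMSO, 1.04 CPM and 0.68 CPM on average (0.60 ± 0.41, edgeR adjusted p 0.265).

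The feedback targets did not pass both limits. AXIN2, a scaffold of the destruction complex whose gene is switched on by β-catenin, had 203 and 215 reads in CBL0137, against 177 and 179 reads in DMSO. At 9.67 and 9.28 CPM in CBL0137 and 7.75 and 7.95 CPM in DMSO the conditions did not overlap. In deposited FPKM they did, at 2.27 and 2.15 in CBL0137 and 2.15 and 1.58 in DMSO. Of its exon bases, 25.3% are also exon of ENSG00000266076 on the same strand, which had 0 reads but 1.89 to 2.43 FPKM per library. The log2 fold change of 0.27 ± 0.13 had an unadjusted p of 0.0485 and an edgeR adjusted p of 0.109, so it was not called. NKD2, an inhibitor that binds Dishevelled, measured 54.6 and 54.9 CPM in CBL0137 and 46.9 and 47.6 CPM in DMSO (0.21 ± 0.06, edgeR adjusted p 0.00565), below the fold limit. Its relative NKD1 had 21 to 40 reads per library and overlapped between conditions (-0.24 ± 0.36), at 1.17 CPM in CBL0137 and 1.39 CPM in DMSO on average.

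**Figure D4:**
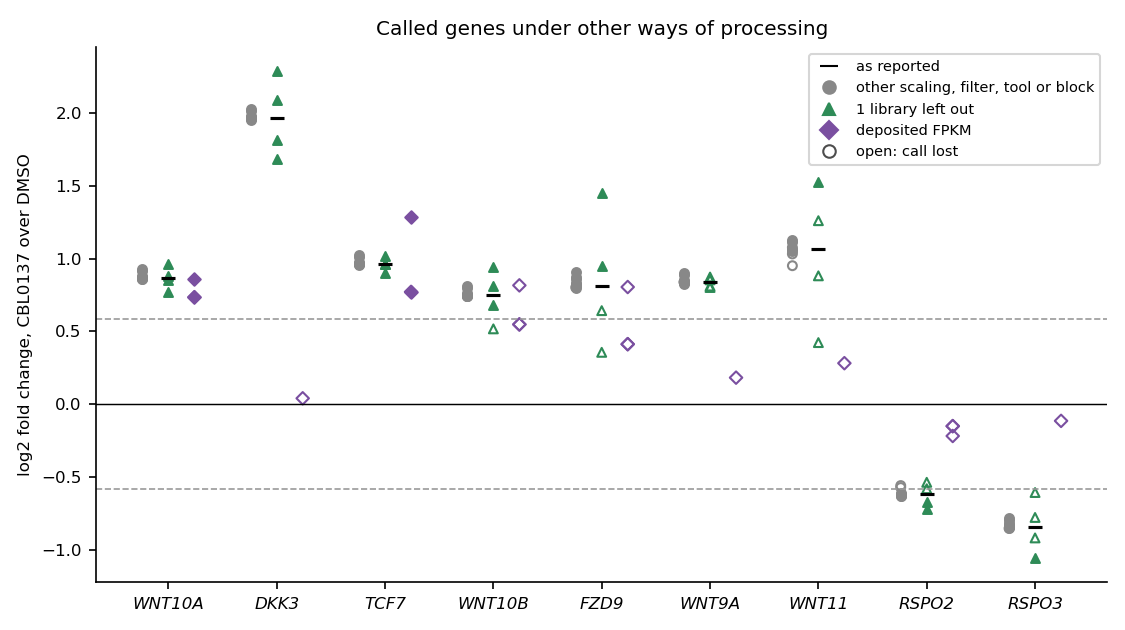
Log2 fold change of the 9 called genes as reported and under other ways of processing, with open symbols where the call was lost and dashed lines at a fold change of 1.5. WNT10A and TCF7 lie above the fold limit in counts and in FPKM. DKK3 stands at 1.96 in counts and at 0.04 on unfiltered log2(FPKM + 1), where the added 1 shrinks changes at its level.

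The call of WNT10A and of TCF7 held under 16 of 18 other ways of processing each. DKK3 kept its call under 15 of 16, all of those on counts. WNT10B kept it under 12 of 18, FZD9 under 10 of 18, RSPO2 under 9 of 18, RSPO3 under 9 of 16, WNT9A under 7 of 16 and WNT11 under 7 of 15. No called gene changed sign under any of them. These ways are not independent checks. Adjusted p alone reuses the reported fit and keeps every call, and a fold change above 2 reuses its fold changes. Unfiltered log2(FPKM + 1) gave 0 calls over all genes, so no call could be kept there. The totals differ because some genes were absent under some filters, so the tallies are not comparable between genes. Of the 37 tested genes, 34 had the same sign in the deposited FPKM as in the counts, and the 3 that did not were LRP5, TCF7L1 and TCF7L2.

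The layers of the pathway on either side of the receptors were read from lists of other Wnt genes. Among 21 genes for Wnt release and other extracellular control, 14 were tested, 1 rose, 0 fell and 13 were not called. Over all tested genes, 6.88% rose and 2.73% fell. The median log2 fold change of the list was 0.16. The gene that rose was TRABD2A, a membrane protease that inactivates Wnt ligands, with 18 and 24 reads in CBL0137 and 7 and 7 in DMSO (1.604 ± 0.498, edgeR adjusted p 0.0129). TRABD2A had fewer than 10 reads in both DMSO libraries, so it passed the count filter through its CBL0137 libraries alone. Its call was lost without CBL0137 replicate 2 (1.45), DMSO replicate 1 (1.59) or DMSO replicate 2 (1.61), and DESeq2 and the 1 CPM filter each gave 0 higher calls in this list. TPBG, a membrane inhibitor of canonical signalling, measured 161 CPM in CBL0137 and 108 CPM in DMSO (0.57 ± 0.05), and DRAXIN, an antagonist that binds LRP6, stood at 0.57 ± 0.11. Both passed the fold limit with upper-quartile factors (0.62 and 0.61) and library size alone (0.63 and 0.63), TPBG also without CBL0137 replicate 2 (0.63), and DRAXIN without CBL0137 replicate 1 (0.64) or DMSO replicate 2 (0.65). FRZB, the SFRP-like protein outside the SFRP symbols, stood at 0.45 ± 0.09, and the inhibitor APCDD1 at 0.19 ± 0.04.

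The cytoplasmic, nuclear and polarity lists held no gene called by edgeR as reported, where 9.61% of all tested genes were called. Most of their tested genes averaged at least 10 CPM, a level at which 2.56% of all tested genes rose and 2.41% fell. All 22 genes of cytoplasmic transduction and the destruction complex were tested, with a median of 0.002. EdgeR called 0 of them, DESeq2 0 and limma-voom 0, although the lack of edgeR calls did not hold without CBL0137 replicate 1. By adjusted p alone, 2 of the 22 were higher, where 17.5% of all tested genes were, and 4 were lower, where 19.0% were. GSK3B, the kinase that marks β-catenin for degradation, stood at -0.29 ± 0.05, CSNK1G3 at -0.27 ± 0.06, AMER1 at 0.36 ± 0.11 and DVL1 at -0.16 ± 0.05. Of 16 nuclear co-factors tested, 0 were called by edgeR or DESeq2 and 1 by limma-voom, with a median of 0.06. By adjusted p alone, 2 of the 16 were higher, where 17.5% of all tested genes were, and 3 were lower, where 19.0% were. EdgeR called 1 of the 16 higher without a count filter, with the 1 CPM filter, with library size alone and with upper-quartile factors. The largest change in that list, named after its values were seen, was that of the co-repressor TLE1, with 27 and 33 reads in CBL0137 and 19 and 12 in DMSO (0.98 ± 0.39, edgeR adjusted p 0.0506). Those with the smallest adjusted p were SMARCA4 (-0.13 ± 0.03), TBL1X (-0.22 ± 0.06), CREBBP (0.16 ± 0.05) and TLE2 (0.27 ± 0.09), and the sign of TBL1X turned on log2(FPKM + 1) (0.13). Of 14 polarity and non-canonical receptor genes, 12 were tested, and edgeR, DESeq2 and limma-voom called 0 of them, with a median of -0.04. By adjusted p alone, 5 of the 12 were higher, where 17.5% of all tested genes were, and 2 were lower, where 19.0% were. CELSR2 stood at 0.27 ± 0.04, SCRIB at -0.24 ± 0.04, VANGL1 at -0.34 ± 0.06 and DAAM2 at 0.51 ± 0.09.

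Of 24 other genes known as β-catenin targets in some tissue, 12 were tested, 4 rose, 0 fell and 8 were not called, with a median of 0.32, where 6.88% of all tested genes rose and 2.73% fell. By adjusted p alone 7 were higher, where 17.5% of all tested genes were, and 2 were lower, where 19.0% were. The 2 lower ones were MYC (-0.19 ± 0.04, edgeR adjusted p 3.90e-04) and CCND1 (-0.07 ± 0.03, edgeR adjusted p 0.0429), named after their values were seen. VCAN, a matrix proteoglycan, measured 3.47 CPM in CBL0137 and 1.17 CPM in DMSO (1.57 ± 0.29), although its deposited FPKM overlapped between conditions. EPHB2, an ephrin receptor, measured 45.0 CPM in CBL0137 and 25.5 CPM in DMSO (0.82 ± 0.07). SOX9, a cartilage and progenitor factor, measured 66.7 CPM in CBL0137 and 42.6 CPM in DMSO (0.65 ± 0.06), and FOSL1, an AP-1 subunit, 14.6 CPM in CBL0137 and 9.65 CPM in DMSO (0.60 ± 0.11). FOSL1 dropped below the fold limit without DMSO replicate 2 (0.56). ID2 stood at 0.38 ± 0.04 and was not called. The targets SP5, ASCL2, CDX1, CDX2, TBXT and MMP7, several of them strongly induced by Wnt in other tissues, had 0 to 5 reads per library. Whether β-catenin took part in these changes was not tested.

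**Figure D5:**
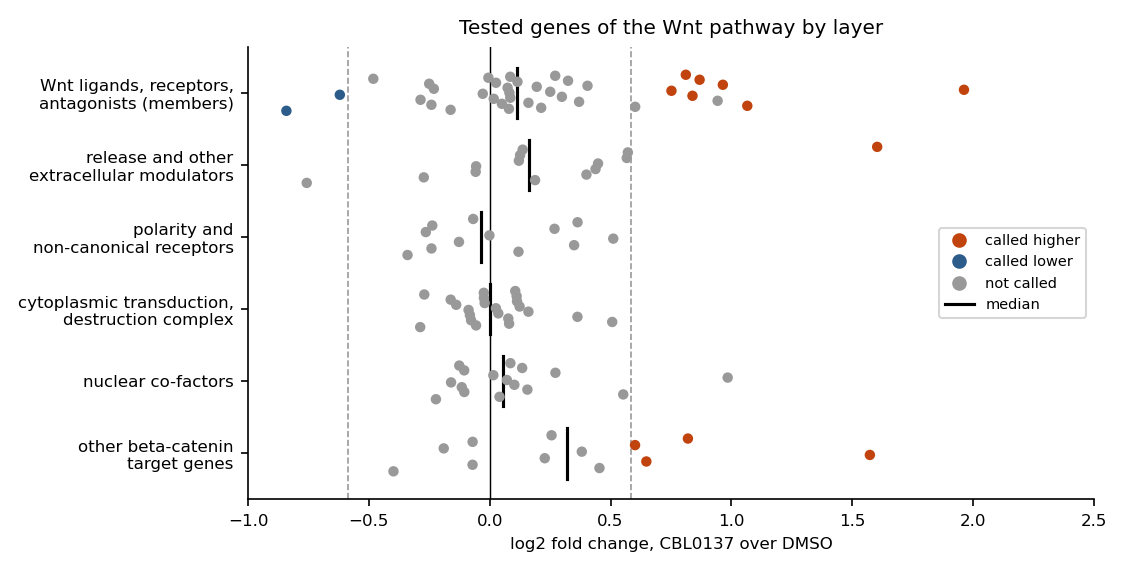
Log2 fold change, CBL0137 over DMSO, of each tested gene in the Wnt gene group and in 5 lists of other pathway genes, with the median as a bar and dashed lines at a fold change of 1.5. Called genes are seen in the Wnt gene group, the extracellular list and the target list. In the extracellular list 1 of 14 tested genes rose, where 6.88% of all tested genes rose. In the other 3 lists, 0 of the 50 tested genes were called, where 9.61% of all tested genes were. From 10 CPM, where most of these 50 lie, 2.56% of all tested genes rose and 2.41% fell. The difference between lists was not tested.

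Markers of other cell types were measured beside these results. For the counts that follow, 6.88% of all tested genes rose. Of 9 stromal markers, 8 were tested and 4 rose, namely COL1A1, DCN, PDGFRB and THY1, and the summed level of the list was 1767 to 1844 CPM in CBL0137, against 1320 to 1358 CPM in DMSO, while LUM had 6 to 9 reads per library. Of 10 epithelial markers, 5 were tested and KRT8, KRT18, CLDN3 and RAB25 rose. DESeq2 called 1 of them, and edgeR 1 without CBL0137 replicate 2, 2 without DMSO replicate 1 and 2 without DMSO replicate 2. KRT8 overlapped between conditions in deposited FPKM, at 29.9 and 11.6 in CBL0137 and 19.8 and 14.1 in DMSO. CLDN3 had 19 and 18 reads in CBL0137 and 10 and 4 in DMSO. RAB25 had 10 and 16 reads in CBL0137 and 3 and 3 in DMSO. CLDN3 and RAB25 passed the count filter through their CBL0137 libraries alone. The list had a summed level of 470 to 499 CPM in CBL0137 and 297 to 299 CPM in DMSO. The defining epithelial genes EPCAM, CDH1, ESRP1 and GRHL2 had 0 to 14 reads per library, GRHL2 being at 0 in each. Of 8 blood markers, 3 were tested and ITGAM rose (0 by DESeq2), the sum was 7.51 to 7.90 CPM in CBL0137 and 5.06 to 5.43 CPM in DMSO, and PTPRC and CD3E had 0 or 1 read. CD68 also had 0 or 1 read, but 5.99 and 8.37 deposited FPKM in CBL0137 and 9.743 and 9.002 in DMSO, so its level could not be read from the counts. Of 9 neuronal markers, edgeR, DESeq2 and limma-voom called 0, and the sum was 202 to 218 CPM in CBL0137 and 186 to 197 CPM in DMSO. By adjusted p alone, 2 of the 6 tested were higher, where 17.5% of all tested genes were, and 0 were lower, where 19.0% were. The part of these shifts in the changes of the Wnt genes was not tested.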

How the data were processed

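RNA-seq libraries of A673 cells, 2 with CBL0137 and 2 with DMSO, were compared. Trim Galore (a read trimmer), HISAT2 (an aligner), HTSeq 0.11.1 (a read counter), DESeq2 1.26.0 and the builds hg19 and mm10 are named, without their settings, per the submitters' processing notes. The authors deposited raw read counts per gene and, separately, FPKM, which is scaled for gene length and depth; the annotation release and strand setting are not given in the sources used here. Rows that name no gene, 5 of them HTSeq summaries, were left out; the summaries held 23.7% to 24.8% of reads, with 9.19% to 9.50% fitting more than 1 gene.

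Symbols and GRCh37 coordinates came from GENCODE 44 lifted to GRCh37. Counts were fitted with edgeR 4.0.16 in R 4.3.3 (quasi-likelihood test, TMM, filterByExpr with a minimum count of 10), and p-values were adjusted over all 17309 tested genes by Benjamini-Hochberg. CPM errors are given through the fitted log2 fold change and its SE. The script was tested on simulated data. Alternatives were other scaling factors, count filters and fold limits, DESeq2 1.42.0, limma 3.58.1 on counts and on log2(FPKM + 1), a replicate block, and leaving out each library. EdgeR's test reports no SE. The SE given here is the size of the log2 fold change divided by the square root of the test's F statistic. It thus includes the variation among libraries that the fit estimates. The floors cover counting error only.

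The gene group and all lists were chosen with earlier results of these data known. Called members were named with the value of each library, other tested members with means and log2 fold change, untested ones by counts, and from each list the called genes and the 4 smallest adjusted p. The 5-letter promoter motif was added after the data were seen.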

Additional observations from a re-analysis of the deposited data

How the results depend on the processing

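Of the 9 called Wnt genes, WNT9A, WNT11 and RSPO3 had at most 54 reads in every library, and the effect of depth on their calls was not tested. All counts below give higher calls first. Over all genes (1191 and 472), DESeq2 gave 593 higher calls, glmTreat 295 and 104, adjusted p alone 3022 and 3292, a fold change above 2 605 and 131, log2(FPKM + 1) 388 and 189, log2(FPKM + 0.1) 489 and 237, and unfiltered FPKM 0 and 0. Among the Wnt genes (7 and 2), DESeq2 gave 4 and 1, glmTreat 3 and 0, adjusted p alone 12 and 4, a fold change above 2 2 and 0, log2(FPKM + 1) 2 and 0, log2(FPKM + 0.1) 2 and 0, unfiltered FPKM 0 and 0, and upper-quartile factors and library size alone 1 lower call each. Among the 5 pathway lists (5 and 0), upper-quartile factors and library size alone gave 8 higher calls each, glmTreat 2, adjusted p alone 23 and 12, a fold change above 2 2, log2(FPKM + 1) 3, unfiltered FPKM 0, and either other count filter 1 lower call. Without 1 library, calls numbered 921 to 1052 and 422 to 539 over all genes, 4 to 5 and 0 to 2 among the Wnt genes, and 4 to 7 and 0 to 1 in the lists. Replicate numbers did not pair the libraries (correlation of deviations -0.000133), and a replicate block gave 1128 and 448 calls over all genes, 5 and 2 among the Wnt genes, where it ended the calls of WNT9A and WNT11, and 5 and 0 in the lists. Signs turned only in uncalled genes. LRP5 was 0.0422 with upper-quartile factors, 0.0557 with library size alone, 0.0063 with the 1 CPM filter, 0.0847 on log2(FPKM + 1) with and without a filter and 0.0878 on log2(FPKM + 0.1). TCF7L2 was 0.0188 and 0.0323 with those scalings and 0.0239 and 0.0369 in FPKM, TCF7L1 -0.0971 and -0.109, and TBL1X 0.131 and 0.175. Without 1 library, the ranges crossed 0 for FZD3 (-0.0206 to 0.11), FZD7 (-0.0132 to 0.168), LRP5 (-0.0649 to 0.0445), LRP6 (-0.0178 to 0.062), ZNRF3 (-0.0345 to 0.0546), TCF7L2 (-0.113 to 0.0408), NKD1 (-0.60 to 0.213), WNT2B (-0.66 to 0.587), WNT3 (-0.129 to 0.585), WNT5B (-0.188 to 0.287), SFRP1 (-0.78 to 0.455) and SFRP2 (-0.0254 to 0.465). The causes were not tested.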
